A study of Solanum lycopersicum with 17 samples.

Results

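The phenolic metabolism genes CHS2, DFR and THT1-3 were followed across tomato fruit that differed in whether they held seeds. The members were every probe set to which the platform annotation gives 1 of these 3 symbols, which came to 3 probe sets, 1 per gene, of 10101 tested and of 803 genes with a probe set. They were chosen by measured values: earlier results of the same arrays showed low log2 values of these genes in fruit without seeds, against wild-type fruit with seeds. Every difference of the members from the control with seeds is therefore given as a description with no test. The members are tested in comparisons whose differences leave that control out, though its arrays enter the estimate of the spread. Both sides of these comparisons are fruit without seeds, in which the members were chosen as low. That choice favours small differences, so a member that is not called there is no result about likeness.

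RNA came from fruit of Solanum lycopersicum on 17 Affymetrix arrays, 1 pool of 8 fruits from 1 plant per array. The lines INO-IaaM, DefH9-IaaM and INO-RolB had 3 arrays each and DefH9-RolB had 2, and they were set against wild-type fruit whose seeds had been taken out by hand (control without seeds, 3 arrays) and whole wild-type fruit (control with seeds, 3 arrays). The iaaM gene of plant-pathogenic bacteria turns tryptophan into an auxin precursor, and rolB, also bacterial, alters how tissue responds to auxin. The INO promoter comes from an Arabidopsis gene of the ovule integument and the DefH9 promoter from a snapdragon gene of placenta and ovule, so each transgene is driven mainly in the tissue from which seeds form. The sources used here do not give the number of transformation events behind a line, the cultivar or the age of the fruit.

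Chalcone synthase, which CHS2 and its relative CHS1 encode, joins a coumaroyl unit to malonyl units and so opens flavonoid synthesis; in tomato fruit its product, naringenin chalcone, collects in the peel. Dihydroflavonol reductase, encoded by DFR, acts further along, on the branch to anthocyanins and proanthocyanidins, which in many plants colour the seed coat. Tyramine hydroxycinnamoyl transferase, the enzyme family of THT1-3, draws on the same hydroxycinnamoyl units but joins them to tyramine, giving amides that are known for strengthening cell walls after wounding or infection.

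Values are log2 RMA values, so a difference of 1 is a doubling of signal. Array medians lay between 8.37 and 8.43, and arrays of a group correlated at 0.986 to 0.995. The level at which a probe set cannot be told from an absent transcript was read from reporter probe sets without a signal. These were the 61 of 63 reporter probe sets whose highest value was under 6, a chosen cut. They spanned 2.45 to 5.49 over all arrays, which is called the silent range below, and its upper end is their single highest value. Of 8 fruit markers, 7 (2A11, E8, PG2, Psy1, RIN, AGL11 and TAGL1) lay above that range on all arrays. The eighth, TPRP-F1, lay in the silent range on all 6 control arrays and was called higher than the control with seeds in each line, with line means of 6.01 to 7.12 against 3.77 and limma adjusted p-values of 0.00361 to 0.0159. As seed markers 2 genes were used, the alpha-galactosidase gene AGAL and the galactinol synthase gene GolS-1, which these arrays had already shown to be low without seeds; no symbol of a storage protein or oleosin was found. Their mean level lay between 3.34 and 8.17 in the 11 line arrays and between 4.32 and 7.95 in the control without seeds, against 10.94 to 12.02 in the control with seeds.

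CHS2 was the member that stayed above the silent range on every array. Its level was 8.02, 8.47 and 5.89 on the INO-IaaM arrays, and 6.78, 8.72 and 6.64 on the DefH9-IaaM arrays. It was 6.41, 7.43 and 6.47 on the INO-RolB arrays, and 8.50 and 8.02 on the DefH9-RolB arrays. The control without seeds gave 8.09, 7.45 and 7.75, against 11.53, 11.09 and 12.10 in the control with seeds. All 14 arrays of seedless fruit thus lay between 5.89 and 8.72, below every array with seeds and above the silent range. Each array measured RNA of many cell types at once, so fewer cells that hold a transcript and less transcript per cell cannot be told apart, for CHS2 or the other members. In the control without seeds the seeds were taken out by design. There GolS-1 still lay above the silent range on replicates 1 and 3 (6.69 and 7.95), and AGAL on replicate 3 (7.96). On replicate 2 neither did, and how much seed tissue remained was not tested.

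**Figure D1:**
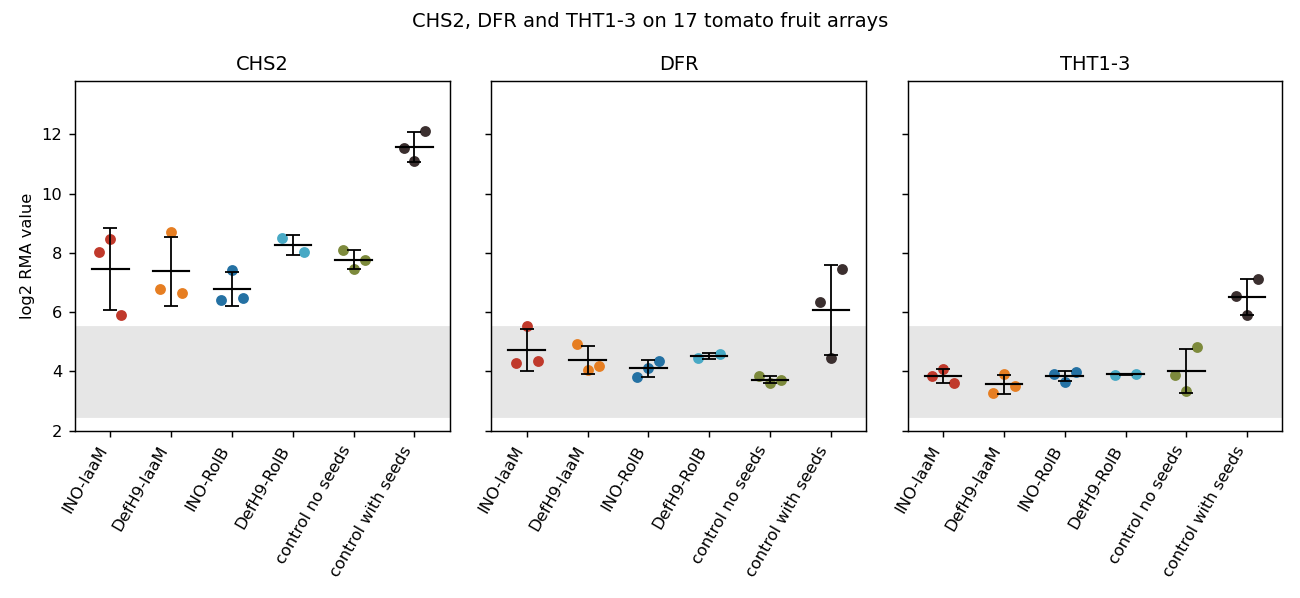
Log2 RMA values (y axis) of CHS2, DFR and THT1-3 on each array, by group (x axis); points are arrays, the bar and whiskers are the mean and SD, and the grey band is the silent range of 2.45 to 5.49. CHS2 stayed above the band in every group, whereas THT1-3 lay inside it on all 14 arrays without seeds and DFR on 13 of them.

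Set against the control with seeds, CHS2 was lower in the control without seeds by -3.81 ± 0.63 (SE of the fit), a 14.0-fold difference in signal. The difference was -4.11 ± 0.63 in INO-IaaM, -4.20 ± 0.63 in DefH9-IaaM, -4.81 ± 0.63 in INO-RolB and -3.32 ± 0.70 in DefH9-RolB. In folds of signal these are 17.3, 18.3, 28.0 and 9.96. The 5 comparisons share the same 3 control arrays, so they are not separate pieces of evidence. The share of all probe sets that limma called lower, at an adjusted p under 0.05, was 3.31% for the control without seeds, 7.83% for INO-IaaM, 8.14% for DefH9-IaaM, 9.68% for INO-RolB and 7.27% for DefH9-RolB. These shares are given as background, and nothing about the members is read from them because the choice of members used these comparisons.

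THT1-3 had a detectable level only on the arrays with seeds. It lay at 3.85, 4.07 and 3.60 in INO-IaaM and at 3.28, 3.92 and 3.49 in DefH9-IaaM. In INO-RolB it lay at 3.92, 3.65 and 3.97, and in DefH9-RolB at 3.88 and 3.92. The control without seeds gave 3.87, 3.35 and 4.81, against 6.56, 5.89 and 7.10 in the control with seeds. No array of seedless fruit reached the lowest array with seeds, and all 14 lay in the silent range. The difference from the control with seeds was -2.51 ± 0.33 (SE) in the control without seeds, -2.68 ± 0.33 in INO-IaaM, -2.95 ± 0.33 in DefH9-IaaM, -2.67 ± 0.33 in INO-RolB and -2.62 ± 0.37 in DefH9-RolB. Since the lower side of each of these differences is not told apart from absence, their true size may be larger.

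DFR showed the same ranking of the 2 controls with much more scatter. It lay at 4.28, 5.52 and 4.34 in INO-IaaM, and at 4.92, 4.03 and 4.17 in DefH9-IaaM. In INO-RolB it lay at 3.81, 4.12 and 4.37, and in DefH9-RolB at 4.43 and 4.59. The control without seeds gave 3.84, 3.61 and 3.69, against 6.33, 4.44 and 7.46 in the control with seeds. With seeds the SD was 1.53 (n = 3), and replicate 2 of that group lay in the silent range, below 3 of the 14 seedless arrays. The 2 controls did not overlap, nor did INO-RolB and the control with seeds, while at least 1 array of each of the other 3 lines lay above that replicate 2.

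The DFR difference from the control with seeds was -2.36 ± 0.56 (SE) in the control without seeds, -1.36 ± 0.56 in INO-IaaM, -1.70 ± 0.56 in DefH9-IaaM, -1.98 ± 0.56 in INO-RolB and -1.56 ± 0.62 in DefH9-RolB. As 13 of the 14 seedless arrays and 1 array with seeds lay in the silent range, these are differences in array signal, and the true size may be larger. Single arrays with seeds decided the measured size. Without replicate 3 of the control with seeds, the INO-IaaM difference was -0.67, that of DefH9-IaaM -1.01, that of INO-RolB -1.28 and that of DefH9-RolB -0.87. Without replicate 2 of the same group, the INO-IaaM difference was -2.18 and that of DefH9-RolB -2.38.

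A measure of RNA integrity, the 5' end signal minus the 3' end signal of the housekeeping controls on the array, also moved with the groups. It ran from -0.70 to -0.34 in the lines and from -0.92 to -0.57 in the control without seeds, against -0.89 to -0.59 in the control with seeds. Its part in the differences was examined only by a fit. With this measure as a covariate, the DefH9-RolB difference from the control with seeds was -1.90 for CHS2 and -1.54 for THT1-3, and the INO-RolB difference of THT1-3 was -1.77. Over all the alternatives that kept every array, the CHS2 difference between the controls without and with seeds stayed between -3.97 and -3.62.

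Ordered by mean level, the control with seeds came first for all 3 members. For CHS2 the order below it was DefH9-RolB, the control without seeds, INO-IaaM, DefH9-IaaM and INO-RolB, with means of 8.26 ± 0.34 (SD, n = 2), 7.77 ± 0.32, 7.46 ± 1.38, 7.38 ± 1.16 and 6.77 ± 0.57 (SD, n = 3 each). Each neighbouring pair in that row overlapped. For THT1-3 the 5 seedless groups ran from 3.56 ± 0.33 in DefH9-IaaM to 4.01 ± 0.74 in the control without seeds (SD, n = 3 each), all in the silent range. For DFR they ran from 3.72 ± 0.11 in the control without seeds to 4.71 ± 0.70 in INO-IaaM (SD, n = 3 each), and neighbours overlapped there too.

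Whether seedless transgenic fruit differed from wild-type fruit emptied of its seeds was asked with differences that leave out the control with seeds. The arrays of that control still enter the spread behind each SE, interval and p-value, because all 6 groups share 1 fit. For DFR its SD was 1.53, against 0.11 to 0.70 in the other groups. The mean of the 4 lines minus the control without seeds was -0.30 ± 0.50 for CHS2 (SE; 95% interval -1.38 to 0.78; limma adjusted p = 0.725). The CHS2 interval covers differences in either direction, so equal levels are not shown. For THT1-3 the difference was -0.22 ± 0.27 (95% interval -0.79 to 0.35; limma adjusted p = 0.611), and for DFR it was 0.71 ± 0.45 (95% interval -0.25 to 1.67; limma adjusted p = 0.297). Both of these compare levels inside the silent range, apart from 1 DFR array, and no change of the gene is read from them. None of the 3 members was called by limma, where 17.1% of all probe sets were, and none had an unadjusted p under 0.05, where 31.7% did. The members were chosen as low on both sides of this comparison, which favours small differences. These shares are therefore background only, and nothing about the members is read from them. The signs of CHS2 and THT1-3 are not settled either. With the RNA integrity measure as a covariate the difference was 0.63 for CHS2 and 0.48 for THT1-3. Without control without seeds replicate 3 it was 0.18 for THT1-3, and none of these was called. The DFR difference stayed positive, at 0.61 to 0.77 when arrays were left out and at 0.66 to 1.12 in the other settings.

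**Figure D2:**
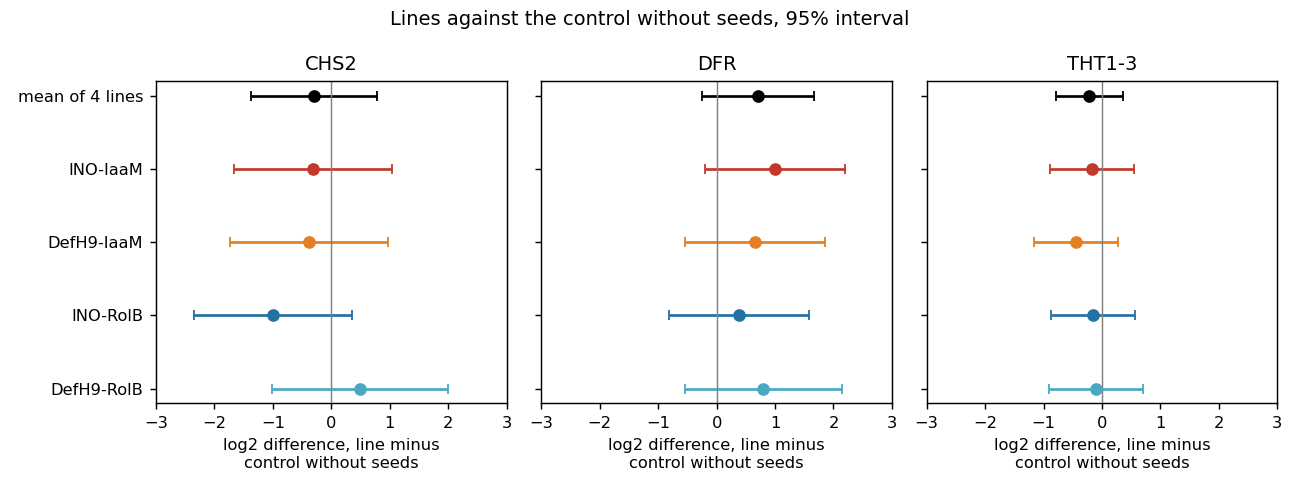
Difference in log2 RMA value (x axis) of the mean of the 4 lines and of each line from the control without seeds (rows), for CHS2, DFR and THT1-3; points are estimates of the limma fit and bars are 95% intervals. Every interval includes 0.

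Line by line, CHS2 differed from the control without seeds by -0.30 ± 0.63 (SE) in INO-IaaM (95% interval -1.66 to 1.05), by -0.39 ± 0.63 in DefH9-IaaM (-1.74 to 0.97), by -0.998 ± 0.63 in INO-RolB (-2.35 to 0.36) and by 0.49 ± 0.70 in DefH9-RolB (-1.02 to 2.01). The INO-RolB arrays, at 6.41 to 7.43, reached just short of the lowest control array without seeds, at 7.45, and their limma adjusted p was 0.335. The share of all probe sets whose arrays separate these groups was not computed, so nothing is read from the narrow gap. For the 3 members the lowest limma adjusted p in a single line was 0.297, for DFR in INO-IaaM. The share of all probe sets called in either direction was 5.74% for INO-IaaM, 4.98% for DefH9-IaaM, 10.1% for INO-RolB and 8.53% for DefH9-RolB, and no member was among them. An unadjusted p under 0.05 was reached by 24% of all probe sets for INO-IaaM, 23.9% for DefH9-IaaM, 27.6% for INO-RolB and 26.1% for DefH9-RolB, and by no member. The choice of members as low in fruit without seeds limits these counts in the same way. Without INO-IaaM replicate 3, whose CHS2 level of 5.89 was the lowest of all arrays, the INO-IaaM difference of CHS2 was 0.48.

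No member was called between the transgenes or between the promoters. The IaaM lines minus the RolB lines gave -0.09 ± 0.47 for CHS2 (SE; 95% interval -1.11 to 0.92; limma adjusted p = 0.941), 0.24 ± 0.42 for DFR and -0.17 ± 0.25 for THT1-3, in a comparison where 2.92% of all probe sets were called and 18.8% had an unadjusted p under 0.05. Leaving out any of 5 line arrays turned the sign of the CHS2 difference, with values of up to 0.30. The DefH9 lines minus the INO lines gave 0.70 ± 0.47 for CHS2 (95% interval -0.31 to 1.72; unadjusted p = 0.158). That contrast called 0 of 10101 probe sets by limma, with 3.74% at an unadjusted p under 0.05. The promoter difference in the IaaM lines minus that in the RolB lines was -1.57 ± 0.94 for CHS2 (95% interval -3.60 to 0.46; unadjusted p = 0.118). It also called 0 probe sets, with 3.82% at an unadjusted p under 0.05.

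CHS2 varied widely from plant to plant within the IaaM lines. INO-IaaM spanned 2.58 log2 units over its 3 arrays and DefH9-IaaM 2.07, against 0.64 in the control without seeds and 1.01 in the control with seeds. Part of that spread was seen in CHS1 too, and whether probes of 1 of these genes also match the other was not tested. Replicate 2 was the highest array of its line for both chalcone synthase genes in INO-IaaM (CHS2 1.01 and CHS1 0.82 above the line mean), in DefH9-IaaM (1.34 and 0.69) and in INO-RolB (0.66 and 1.13). In DefH9-RolB, with 2 arrays, replicate 2 was 0.24 below the line mean for CHS2 and 0.10 above it for CHS1. Over the 11 line arrays the deviations of CHS2 from the line means correlated with those of CHS1 at r = 0.777, with those of THT1-3 at r = 0.663 and with those of DFR at r = 0.152. These are descriptions over arrays that share lines, with the genes of an array read from the same RNA. The share of all probe sets that reach such an r with CHS2 was not computed. THT1-3 and DFR deviate there within the silent range, apart from DFR on 1 array.

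**Figure D3:**
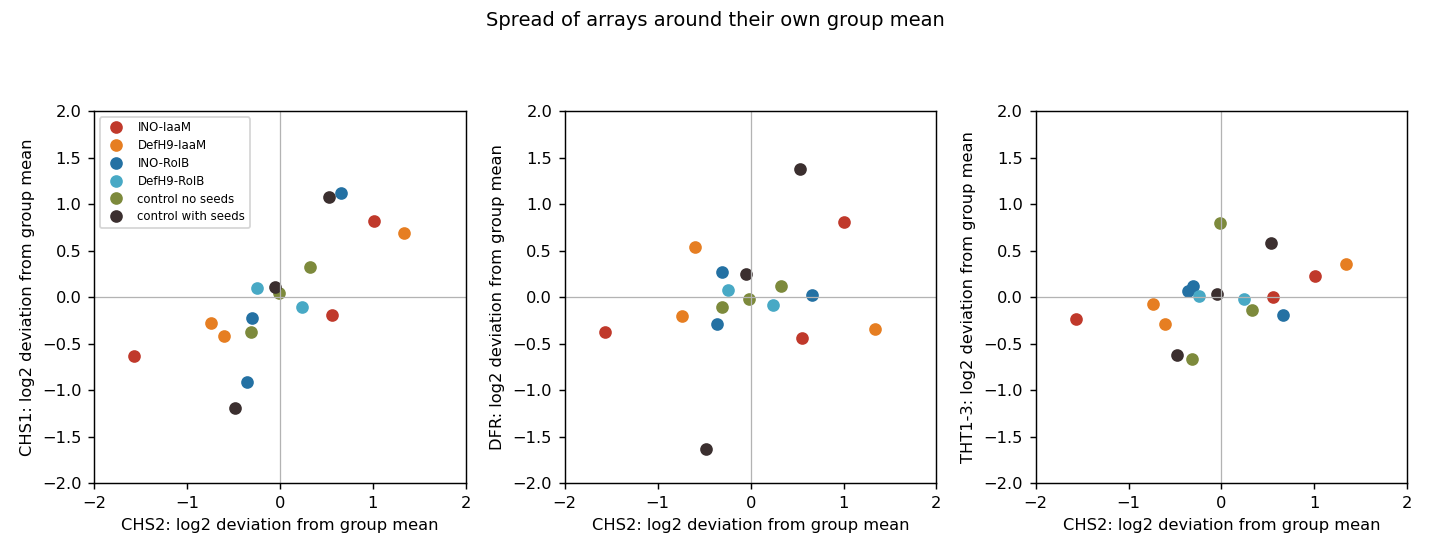
Deviation of each array from its own group mean (log2) for CHS2 (x axis) against CHS1, DFR and THT1-3 (y axes); each point is 1 of 17 arrays, coloured by group. Arrays high in CHS2 for their group tended to be high in CHS1, and less so in DFR.

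The control with seeds had an order of its own. Replicate 3 was highest and replicate 2 lowest for CHS2, DFR, THT1-3 and CHS1, and the same held for AGAL (12.12 and 10.86) and GolS-1 (11.92 and 11.01). Of all probe sets, 17.6% had that order. Among seedless fruit the seed markers and the members did not peak on the same arrays throughout. INO-IaaM replicate 2 had the highest AGAL and GolS-1 of the 14 arrays, at 8.35 and 7.99, together with the highest DFR, at 5.52. In each other line, too, DFR was highest on the array with the highest AGAL and GolS-1. These were DefH9-IaaM replicate 1 (DFR 4.92, AGAL 4.91, GolS-1 4.79), INO-RolB replicate 3 (4.37, 6.10, 5.78) and DefH9-RolB replicate 2 (4.59, 7.47, 7.11). DFR lay in the silent range on these arrays. THT1-3 was also highest in its line on INO-IaaM replicate 2 (4.07), INO-RolB replicate 3 (3.97) and DefH9-RolB replicate 2 (3.92). In DefH9-IaaM, THT1-3 was highest on replicate 2 (3.92), and all of these THT1-3 values lay in the silent range. The share of all probe sets with such a match to the seed markers was not computed. In the control without seeds DFR was highest on replicate 1, at 3.84, but AGAL and GolS-1 on replicate 3. The highest CHS2 of the 14, at 8.72, was on DefH9-IaaM replicate 2, where AGAL at 3.17 and GolS-1 at 3.87 lay in the silent range. Over the 11 line arrays, the CHS2 deviations correlated with those of AGAL at r = 0.122 and with those of GolS-1 at r = 0.135. In the control without seeds, replicate 3 had the highest THT1-3, at 4.81, with AGAL at 7.96 and GolS-1 at 7.95. The part of remaining seed tissue in these values was not tested.

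The other named genes of the pathway were few. Of 22 symbols searched for phenylpropanoid and flavonoid synthesis, 3 besides the members had a probe set, namely CHS1, hqt (the quinate transferase that makes chlorogenic acid in tomato) and ANT1 (a MYB activator of anthocyanin genes). None of the 3 was called by limma in any of the 5 comparisons with the control with seeds, and CHS1 alone had an unadjusted p under 0.05, in 4 of them. The share of all probe sets called in either direction was 4.33% for the control without seeds, 16.1% for INO-IaaM, 17.6% for DefH9-IaaM, 21.6% for INO-RolB and 16.2% for DefH9-RolB. An unadjusted p under 0.05 was reached by 15.7% of all probe sets for the control without seeds, 31.6% for INO-IaaM, 33.5% for DefH9-IaaM, 35.1% for INO-RolB and 31.9% for DefH9-RolB. In the control without seeds the median difference of the 3 was -0.09, against 0.03 over all probe sets.

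CHS1 had the direction of CHS2 at a smaller size. It averaged 7.57 ± 0.75 in INO-IaaM, 7.38 ± 0.60 in DefH9-IaaM, 7.53 ± 1.04 in INO-RolB (SD, n = 3 each) and 8.11 ± 0.14 in DefH9-RolB (SD, n = 2). The control without seeds averaged 7.28 ± 0.35, against 9.15 ± 1.14 in the control with seeds (SD, n = 3 each). On single arrays with seeds CHS1 lay at 9.25, 7.96 and 10.23, and 5 of the 14 seedless arrays exceeded the lowest of these. The CHS1 difference from the control with seeds was -1.86 ± 0.58 (SE) in the control without seeds (limma adjusted p = 0.108), -1.57 in INO-IaaM (0.0828), -1.77 in DefH9-IaaM (0.0514), -1.62 in INO-RolB (0.0631) and -1.03 in DefH9-RolB (0.301). Without control with seeds replicate 2, the first 4 of these were -2.46 (limma adjusted p = 0.0266), -2.17 (0.0248), -2.36 (0.0153) and -2.21 (0.0183), and were called lower. In INO-RolB it was also called without INO-RolB replicate 2, at -2.18 (0.0306). In DefH9-IaaM it was also called without INO-IaaM replicate 2 (0.0489), DefH9-IaaM replicate 2 (0.0344), INO-RolB replicate 1 (0.0454) or INO-RolB replicate 2 (0.0354). With the RNA integrity measure as a covariate the DefH9-RolB difference was 0.09 and was not called. Whether probes of 1 chalcone synthase gene also match the other was not tested.

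The remaining genes of these lists were not called. The hqt signal lay between 12.75 and 13.29 on all 17 arrays, with differences from the control with seeds of -0.23 to -0.02 and none called. ANT1 lay in the silent range on every array. For the supply of aromatic precursors, the shikimate pathway genes DHQS, SK, CS1 and CS2 had probe sets. None of the 4 was called in any comparison, and SK or CS2 had an unadjusted p under 0.05 in 5 of the 13, where 1 gene did each time. CS2 lay between 6.03 and 7.37 in the lines, and its DefH9 minus INO difference was -0.52 ± 0.18 (SE; unadjusted p = 0.0114).

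**Figure D4:**
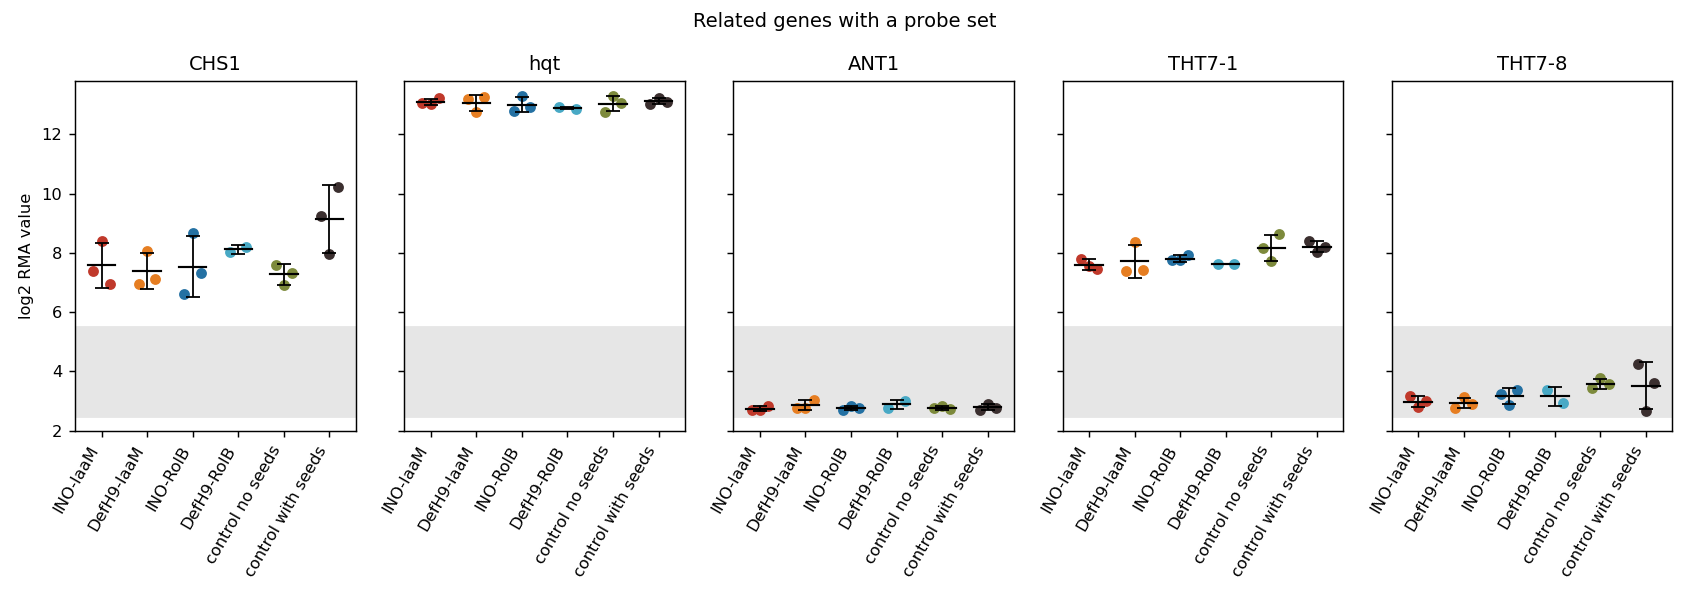
Log2 RMA values (y axis) of CHS1, hqt, ANT1, THT7-1 and THT7-8 on each array, by group (x axis); points are arrays, the bar and whiskers are the mean and SD, and the grey band is the silent range of 2.45 to 5.49. The group with seeds is highest for CHS1, while hqt is level over the 6 groups and ANT1 and THT7-8 stay in the band.

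THT1-3 has near relatives on the same chromosome. In the RefSeq annotation of assembly SLM_r2.1, THT7-1, THT1-3, THT1-4 and THT7-8 fall in that order within a run of 6 genes. The arrays carried THT7-1 and THT7-8, which were looked at after their values were seen and so get no test. THT7-1 lay between 7.38 and 8.63 on the 14 arrays without seeds, against 8.02 to 8.40 with seeds, and the control without seeds differed from the control with seeds by -0.04 ± 0.25 (SE). The THT7-1 difference of the lines from the control with seeds ran from -0.61 ± 0.25 (SE) in INO-IaaM to -0.40 ± 0.25 in INO-RolB. The mean of the 4 lines minus the control without seeds was -0.48 ± 0.20, so the lines were lower than both controls. All line arrays of THT7-1 but DefH9-IaaM replicate 2, at 8.36, lay below its lowest array with seeds. THT7-8 lay in the silent range on all 17 arrays. Whether the probes of THT1-3 also match THT1-4 was not tested.

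Some named genes had group means most like those of the members, which is a description only, because the control with seeds that chose the members enters the measure. Likeness was measured as Pearson's r over the 6 group means, among 167 named probe sets whose group means spanned at least 1 log2 unit and exceeded the silent range in some group. For CHS2 the closest were ltpg1 (r = 0.989), THOM1 (r = 0.979) and LOC543607 (r = 0.978). For THT1-3 they were THOM1 (r = 0.997), SNF4 (a subunit of the energy-sensing kinase SnRK1; r = 0.992) and LOC543892 (r = 0.989). For DFR they were EXPA10 (an expansin, which loosens cell walls; r = 0.961), DEM (r = 0.947) and CHS1 (r = 0.922).

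These values describe 6 points that share arrays, and in each of the genes the control with seeds had the highest mean, through which a gene could also pass the criteria. THOM1 averaged 4.49 to 4.94 in the groups without seeds, in the silent range, against 7.40 in the control with seeds. For all 3 members r largely restates that 1 high group. The means of THT1-3 and DFR without seeds lay in the silent range. Those of CHS2 ran from 6.77 to 8.26, against 11.58 in the control with seeds. ltpg1 averaged 8.02 in INO-RolB and 8.93 in DefH9-RolB, against 11.24 in the control with seeds. EXPA10 averaged 5.34 in the control without seeds, against 7.84 in the control with seeds. An r above 0.95 was reached by 80 of 1052 probe sets for CHS2 and by 105 for THT1-3, but by 12 for DFR.

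**Figure D5:**
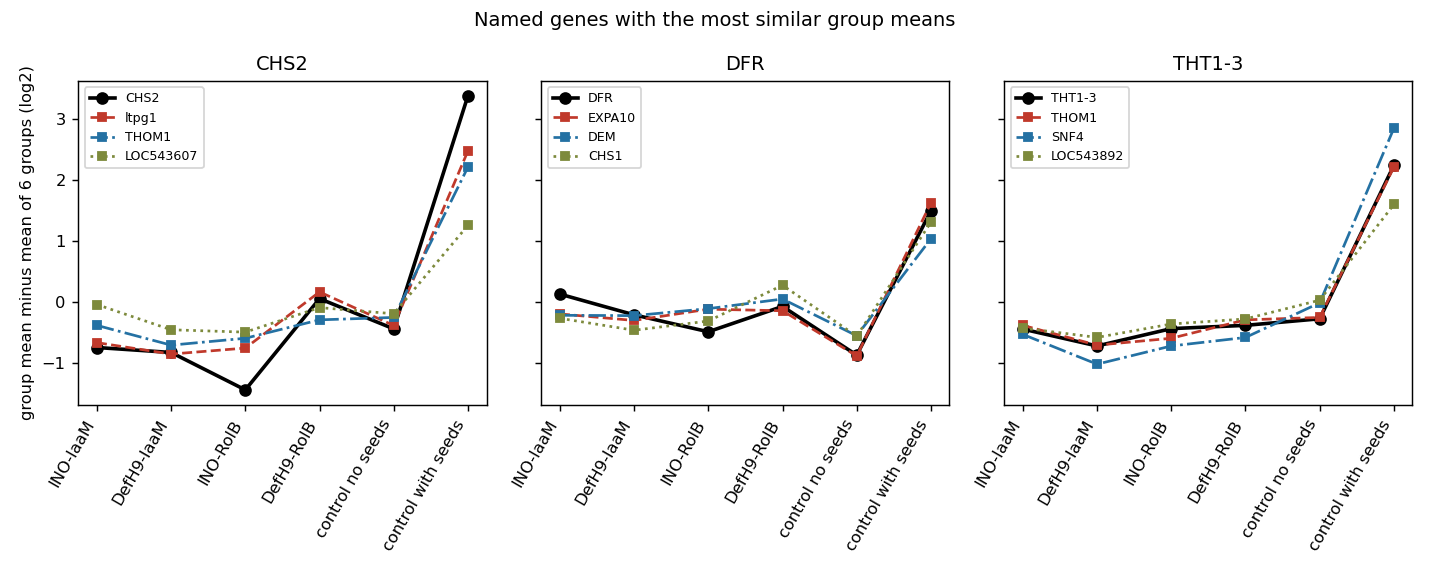
Group means minus the mean over the 6 groups (y axis, log2) for each member (black) and the 3 named genes with the highest r to it, by group (x axis). Every curve has its highest point at the control with seeds, and DFR and the genes closest to it have their lowest point at the control without seeds.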

How the data were processed

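The values were log2 RMA values, 1 per probe set and array, deposited by the authors; RMA is named in the submitters' processing notes, with no version, and base 2 was inferred from the spread of the numbers, which no source states. RMA corrects background, brings arrays to 1 distribution and sums probes, so it compresses differences near the background. Scanner files and probe sequences were not used here. Of 10209 probe sets, 108 controls (AFFX) were left out, and 909 of the other 10101 have 1 gene in the platform annotation (885 matched to RefSeq, SLM_r2.1), so most probe sets are unnamed. Members, lists and naming rules were chosen with earlier results of these data known. The phenylpropanoid list was matched by symbol or synonym, since the tables give no product text, and the shikimate and THT genes were added after the annotation was read. Named genes were the members, list genes that passed, and the 3 genes most like each member; values of other list genes were added because none passed.

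For each probe set, limma 3.58.1 (R 4.3.3) fitted the 6 group means to all 17 arrays with lmFit, and eBayes shared the spread among probe sets (11 residual degrees of freedom), with Benjamini-Hochberg adjustment over 10101 probe sets per contrast and a threshold of 0.05. The members were tested in 8 contrasts. The number of arrays limits precision. The fit was run on simulated data with independent normal noise and the same spread in each group. That setting cannot show how the fit behaves near the silent range or where groups differ in spread. Replicate numbers were checked as pairs by the correlation of residuals: the 2 controls had all 3 pairs above 0.1 (0.164 to 0.478). INO-IaaM and DefH9-RolB, with 2 shared numbers, had 0.334 and 0.441, which is below the 3 pairs asked for, and each other pair of groups had a pair under 0.1. Python 3.11.15 and matplotlib 3.10.9 were used for tables and figures.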

Additional observations from a re-analysis of the deposited data

How the results depend on the processing

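Of 584 values of the members in comparisons without the control with seeds, over alternative settings and the leaving out of each array, 1 was called: DFR in DefH9-RolB minus the control without seeds, at 0.80 (adjusted p = 0.0489) when only those 2 groups were fitted, with both levels in the silent range. The next lowest adjusted p was 0.0715. All 365 values against the control with seeds kept a negative sign. With the RNA integrity covariate, CHS2 minus the control with seeds was -3.19 in INO-IaaM, -3.27 in DefH9-IaaM, -3.62 in INO-RolB and -1.90 in DefH9-RolB, and THT1-3 was -1.97, -2.24, -1.77 and -1.54 in the same order. Leaving out 1 array at a time, the DFR difference ran from -3.18 to -1.67 for the control without seeds, from -2.18 to -0.67 for INO-IaaM, from -2.52 to -1.01 for DefH9-IaaM, from -2.79 to -1.28 for INO-RolB and from -2.38 to -0.87 for DefH9-RolB.

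Of the members' tested differences, none of them called, 26 alternative values had the opposite sign, none called either. Minus the control without seeds and with the covariate, CHS2 was 0.63 for the mean of the lines, 0.43 in INO-IaaM and 0.35 in DefH9-IaaM, and THT1-3 was 0.48 for the mean, 0.39 in INO-IaaM, 0.12 in DefH9-IaaM, 0.60 in INO-RolB and 0.83 in DefH9-RolB. Leaving out 1 array at a time, THT1-3 ran from -0.55 to 0.18 for the mean of the lines, from -0.50 to 0.23 in INO-IaaM, from -0.49 to 0.24 in INO-RolB and from -0.44 to 0.29 in DefH9-RolB, and CHS2 in INO-IaaM ran from -0.81 to 0.48. CHS2 in IaaM minus RolB lines ran from -0.43 to 0.30. DFR in DefH9 minus INO lines ran from -0.10 to 0.24, and was -0.064 with array weights. The replicate block was fitted over all 17 arrays, so it pairs the lines as well as the controls. With it, the CHS2 difference between the controls without and with seeds was -3.81 ± 0.61 (SE). CHS2 in IaaM minus RolB lines was then 0.011, and THT1-3 in DefH9-RolB minus the control without seeds was 0.013. The block changed no call of a member.

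CHS1 was called lower with array weights (adjusted p of 0.0272 for the control without seeds, 0.0343 for INO-IaaM, 0.00840 for DefH9-IaaM and 0.0108 for INO-RolB), and for DefH9-IaaM also without the lowest 30 percent of probe sets (0.0465) and with a trended and robust eBayes (0.0439), so the count of lower list genes was 1 there and ran from 0 to 1 when arrays were left out. Its uncalled differences turned sign too: with the covariate in DefH9-RolB minus the control with seeds (0.093), and with array weights in DefH9-IaaM minus the control without seeds (-0.12) and in DefH9 minus INO lines (-0.043). Leaving out arrays, CHS1 minus the control without seeds ran from -0.12 to 0.61 in INO-IaaM, from -0.25 to 0.30 in DefH9-IaaM and from -0.32 to 0.70 in INO-RolB, and DefH9 minus INO lines ran from -0.032 to 0.48. The cause was not tested for any of these. DFR and THT1-3 are among the lowest 30 percent of probe sets and have no value without them; signal near the silent range limits both.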
